A study of Homo sapiens with 6 samples.

Results

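The genes described here are 22 cyclins and 17 cyclin-dependent kinases (CDKs), 39 genes picked by symbol from the 58735 genes of a deposited expression table. They were sorted by textbook role into 15 cell cycle members (11 cyclins and 4 kinases), 13 members that act on transcription and 11 other members. Their RNA was measured by bulk sequencing in HaCaT, a human keratinocyte line that became immortal spontaneously in culture. One group is 3 Control samples. The other is 3 samples exposed to Dacomitinib, an irreversible inhibitor of EGFR and related receptor tyrosine kinases, for 48 h from a confluence of 70%. The design text attaches 0.1% DMSO to the experimental group. The sources used here give neither the dose nor what the Control cells received. All 6 samples share the 1 cell line. The 3 columns of treated samples carry a letter that no label explains and were taken as Dacomitinib because the other 3 columns match Control, so every direction below rests on that assignment and their numbers are only names. No label says that the samples of a group were separate cultures, so each p-value reflects only how much these libraries vary, and that variation may be technical.

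A cyclin is a regulatory subunit that binds a CDK, switches it on and helps to choose its substrates. D-type cyclins with CDK4 or CDK6 start the phosphorylation of the retinoblastoma protein in G1 and are a main point where growth factor signals such as those of EGFR reach the cell cycle of keratinocytes. E-type cyclins with CDK2 act at the G1/S transition, cyclin A acts with CDK2 and CDK1 from S phase, and cyclin B with CDK1 drives mitosis. A second branch of the family does not order the cell cycle but phosphorylates RNA polymerase II or sits in the Mediator complex or in splicing.

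Values are FPKM, fragments scaled by gene length and library size. Levels and ranks of different genes depend on the deposited gene length, which was not checked against the transcripts expressed. The fold change of a gene or of a ratio between groups does not depend on that length. The libraries held between 14960650 and 16179273 fragments on genes. Each difference is the Dacomitinib mean minus the Control mean of log2(FPKM + 1), a scale that understates the change of weakly expressed genes. They were tested with limma over the 13748 genes with a mean of at least 1 FPKM, 36 of the 39 members among them, and a gene was called at a two-sided Benjamini-Hochberg adjusted p of 0.05. In this comparison 60.2% of all tested genes were called, 34.8% lower and 25.4% higher. The scaling matters for small changes: dividing each library by its own sum, which gives TPM, moved the median difference of all tested genes from -0.06 to 0.23, and then 61.8% were called, 19.8% lower and 42.0% higher. The library size implied by the deposited values was 0.946 to 0.954 times the library's own sum in Control and 1.05 to 1.09 times in Dacomitinib. A list of 8 keratinocyte markers summed to 1240 to 1300 FPKM in Control and 947 to 1140 FPKM in Dacomitinib, with 0 genes at 0. A list of 12 markers of other skin cells summed to 3.20 to 3.82 and 14 to 17.3 FPKM, with 2 to 4 genes at 0, among them the fibroblast collagen COL1A2 and the melanocyte enzyme TYR. Most of the latter sum in Dacomitinib was CDH5, an endothelial cadherin, which went from 1.06 to 1.22 FPKM in Control to 8.60 to 11.4 FPKM. Other markers on this list were also higher without overlap between groups, though low. By group mean DCN went from 0.0197 to 0.897 FPKM, LUM from 0.00783 to 0.282, VWF from 0.333 to 1.19 and PMEL from 0.612 to 1.32. VIM, COL1A1, PECAM1, MLANA and PTPRC overlapped between groups. The part of these markers in the results below was not tested.

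Most of the tested cell cycle members fell, against 34.8% called lower and 25.4% called higher among all tested genes. Of the 13 tested cell cycle members 10 fell, 0 rose and 3 were not called, with a median difference of -1.42 against -0.06 over all tested genes. The 10 include CCNE2, which passed the limit of 1 FPKM through the Control libraries alone. Of the 13 transcription members 5 fell, 5 rose and 3 were not called, with a median of -0.17. These counts lie near the shares of all tested genes and are not read as a result about the transcription members. Of the 10 tested other members 3 fell, 2 rose and 5 were not called, with a median of -0.05. As TPM the cell cycle members gave 10 lower and 1 higher (median -1.27), the transcription members 0 lower and 6 higher (median 0.07), and the other members 1 lower and 5 higher (median 0.25), against 19.8% lower and 42.0% higher of all tested genes. In bulk RNA, fewer cells in a cell cycle phase and less RNA of a gene per cell cannot be told apart.

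The size of the change set the classes further apart than the number of calls did. Genes that were called lower and whose mean FPKM was at least 2-fold lower made up 9.23% of all tested genes. They were 8 of the 13 cell cycle members, CCNE2 again among them, 0 of the 13 transcription members and 0 of the 10 other members. A fall of at least 9-fold was found in 0.764% of all tested genes and in 3 members, CCNA2, CCNB1 and CDK1. The Control and Dacomitinib libraries did not overlap for 67.1% of all tested genes, for 10 of the 13 cell cycle members, for 11 of the 13 transcription members and for 6 of the 10 other members, a share of the members, 27 of 36, near that of all genes. As TPM the shares were 68.6% of all tested genes and 28 of the 36 members. The median of the cell cycle members in a library lay above that of the transcription members by 0.58, 0.59 and 0.72 on the log2(FPKM + 1) scale in the Control libraries and below it in the Dacomitinib libraries, at -0.30, -0.48 and -0.47.

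**Figure D1:**
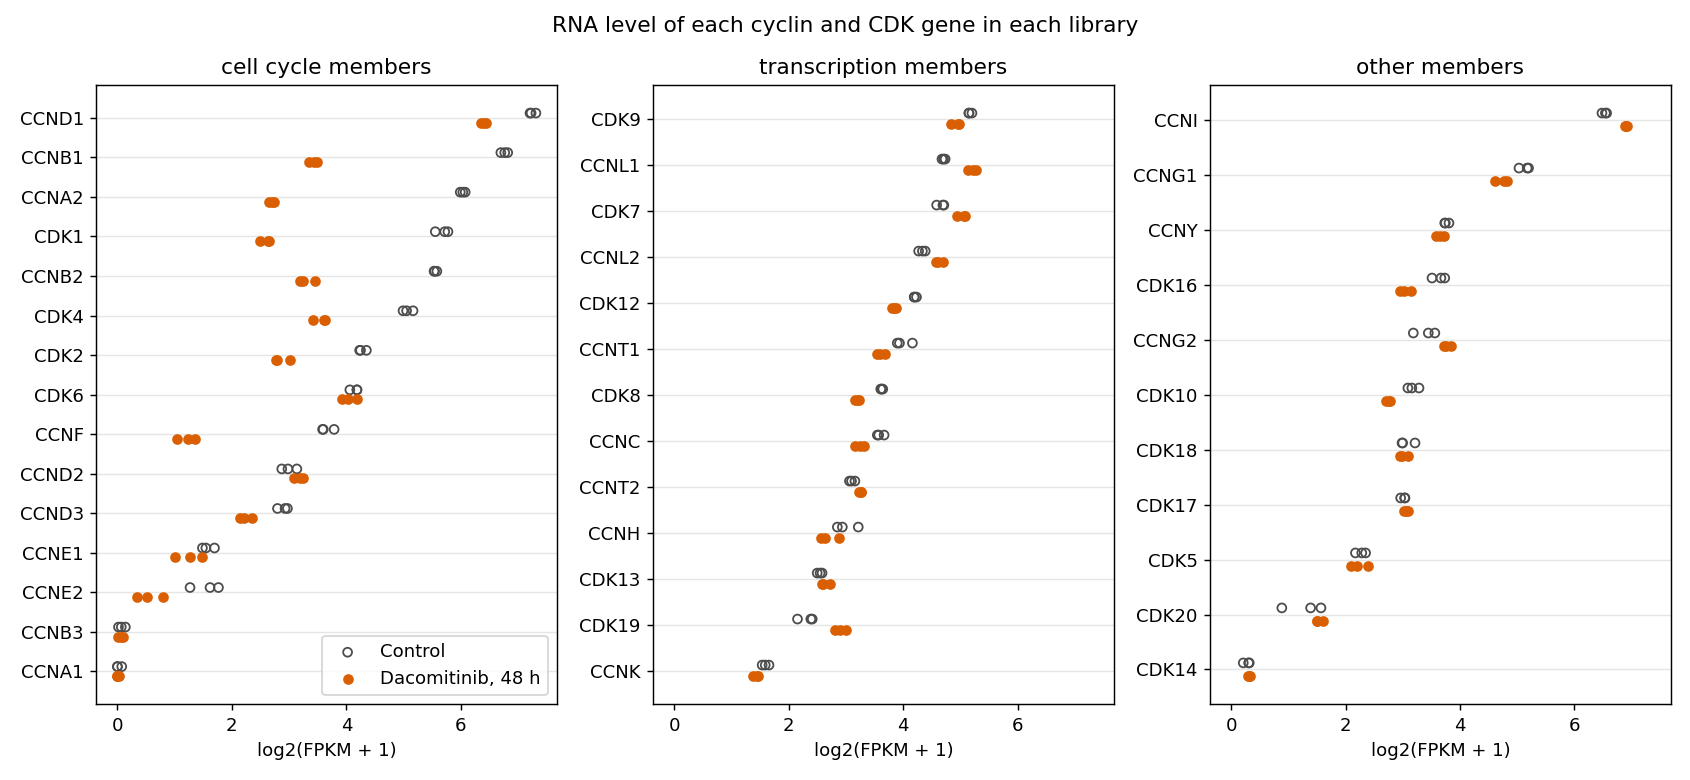
RNA level of each of the 39 genes in each library, as log2(FPKM + 1) on the horizontal axis, with 1 point per library, open for Control and filled for Dacomitinib. The cell cycle panel holds wide gaps between the groups, for example CCNB1 at 103 to 112 against 9.23 to 10.2 FPKM, and the groups lie closer in the transcription and other panels.

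**Figure D2:**
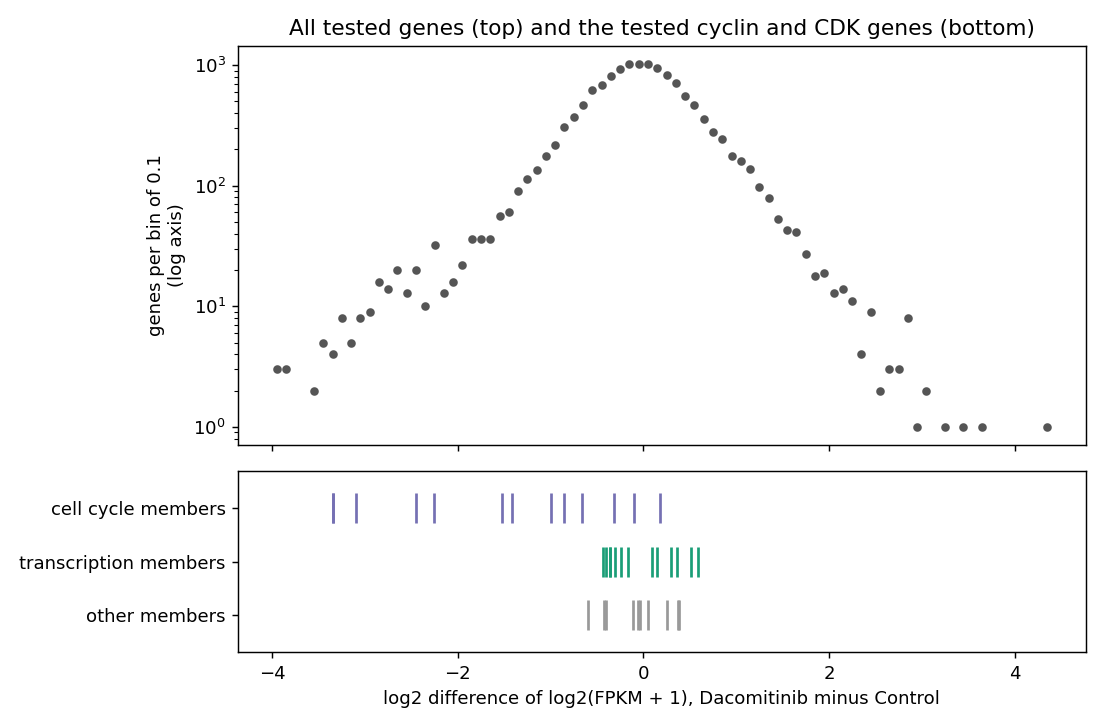
Top, number of tested genes per bin of 0.1 in the log2 difference (log vertical axis, Dacomitinib minus Control, 13748 genes; empty bins have no point); bottom, 1 tick per tested member. The 13 cell cycle members reach from 0.18 down to -3.35 and the 13 transcription members lie between -0.43 and 0.59.

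The mitotic cyclins and their kinase fell most. CCNB1 (ENSG00000134057, chromosome 5, 69167010 to 69178245 on GRCh38), the main mitotic cyclin, stood at 112, 108 and 103 FPKM in Control and at 9.23, 10.2 and 9.79 FPKM in Dacomitinib. CCNA2 (ENSG00000145386, chromosome 4, 121816444 to 121823933), the cyclin A of somatic cells, gave 66.5, 62.6 and 64.6 FPKM against 5.53, 5.28 and 5.67 FPKM. CDK1 (ENSG00000170312, chromosome 10, 60778331 to 60794852), the mitotic kinase, gave 51.7, 53.8 and 46.0 FPKM against 4.62, 5.17 and 5.26 FPKM. In all 3 genes every Dacomitinib library was far below every Control library. The mean of CCNB1 fell 11.1-fold, from 108 ± 4.51 to 9.73 ± 0.467 FPKM (SD, n = 3), a difference of -3.35 (SE 0.05, limma adjusted p = 2.9e-07). CCNA2 fell 11.8-fold (difference -3.34, SE 0.05, limma adjusted p = 2.9e-07) and CDK1 10.1-fold (difference -3.10, SE 0.07, limma adjusted p = 7.57e-07). Ordered from the largest fall among the 13748 tested genes, CCNB1 was number 15, CCNA2 number 16 and CDK1 number 31.

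The second B-type cyclin and cyclin F fell by smaller factors. CCNB2 gave 45.3, 46.9 and 45.6 FPKM in Control and 9.90, 8.11 and 8.47 FPKM in Dacomitinib, a 5.20-fold fall (difference -2.26, SE 0.07, limma adjusted p = 2.0e-06). CCNF (ENSG00000162063, chromosome 16, 2429394 to 2458854), which is the substrate receptor of a ubiquitin ligase and not a CDK partner, gave 11, 11.1 and 12.8 FPKM against 1.05, 1.56 and 1.35 FPKM, an 8.82-fold fall (difference -2.45, SE 0.10, limma adjusted p = 5.18e-06). The groups were again far apart for both genes. The ratio of CCNB1 to CCNB2 was 2.48, 2.31 and 2.27 in the Control libraries and 0.932, 1.25 and 1.16 in the Dacomitinib libraries, lower in each of the latter. The testis-enriched cyclin A gene CCNA1 and the meiotic cyclin B gene CCNB3 were below the level limit, with 2 and 1 fragments for CCNA1 and 13 and 11 for CCNB3 over the 3 libraries of each group.

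The promoters of the strongly lowered genes are shown because these genes fell together. The windows are RefSeq's (GRCh38.p14), held 300 bases around a start site, and were found for 35 of the 39 members, without CCND1, CCND2, CCNE2 and CDK2. The 250 bases before the start are printed 5′ to 3′ on the gene's strand for CCNB1 (chr5:69166900-69167149, plus strand), CCNA2 (chr4:121823884-121824133, minus strand), the downstream one of 2 windows of CDK1 (chr10:60778228-60778477, plus strand, chosen after both were read) and CCNF (chr16:2429197-2429446, plus strand). The RefSeq start lies inside the deposited gene, by 140 bases in CCNB1, 50 in CCNA2, 147 in this CDK1 window and 53 in CCNF. Capitals mark matches to the CCAAT box (CCAAT), to spellings of the cell cycle genes homology region or CHR (TTTGAA or TTCGAA, and also TTTAAA or CTTGAA, which were added after the sequences were read) and to an E2F site (TTTCCCGC or TTTGGCGC or TTTGCCGC or TTTCGCGC), each searched on both strands, so that ATTGG in capitals is CCAAT on the other strand.
CCNB1: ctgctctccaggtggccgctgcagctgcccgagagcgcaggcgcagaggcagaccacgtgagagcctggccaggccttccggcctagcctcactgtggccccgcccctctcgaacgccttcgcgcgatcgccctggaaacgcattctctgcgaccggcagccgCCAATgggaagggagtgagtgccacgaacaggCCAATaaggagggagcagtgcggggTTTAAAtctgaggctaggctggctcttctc
CCNA2: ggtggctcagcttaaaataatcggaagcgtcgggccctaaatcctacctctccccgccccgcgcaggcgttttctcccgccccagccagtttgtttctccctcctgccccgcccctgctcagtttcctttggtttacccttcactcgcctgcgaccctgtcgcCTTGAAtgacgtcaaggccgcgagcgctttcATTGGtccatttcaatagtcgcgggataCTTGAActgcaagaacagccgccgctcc
CDK1: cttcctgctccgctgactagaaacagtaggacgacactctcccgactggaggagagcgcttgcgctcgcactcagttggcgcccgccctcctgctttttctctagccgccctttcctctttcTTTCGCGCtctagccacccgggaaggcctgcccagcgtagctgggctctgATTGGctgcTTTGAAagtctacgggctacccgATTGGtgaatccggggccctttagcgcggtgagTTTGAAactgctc
CCNF: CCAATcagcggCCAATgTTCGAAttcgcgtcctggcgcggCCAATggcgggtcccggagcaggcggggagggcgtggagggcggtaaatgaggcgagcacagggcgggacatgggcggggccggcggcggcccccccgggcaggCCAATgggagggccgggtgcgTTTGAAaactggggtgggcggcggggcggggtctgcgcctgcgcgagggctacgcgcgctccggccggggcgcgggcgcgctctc

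In CCNB1 the CCAAT matches begin 87 and 55 bases before the start, and in CDK1 the reverse CCAAT matches begin 78 and 46 bases before it. A CHR spelling follows closer to the start in both, 30 bases before it in CCNB1 and 13 in CDK1. CDK1 also has TTTGAA 69 bases before the start, between its CCAAT matches, and a reverse match 9 bases after it. CCNA2 has 1 reverse CCAAT match at 56 bases and CTTGAA at 87 and 28 bases before the start. CCNF carries 4 CCAAT matches, at 250, 239, 210 and 106 bases before the start, and CHR spellings at 233 and 85 bases. A CCAAT match was present in 39.7% of the 27305 genes with a window, in 6 of the 11 cell cycle members with a window (54.5%), in 6 of the 13 transcription members (46.2%) and in 3 of the 11 other members (27.3%). The match was present in 5 of the 5 members that fell at least 5-fold (CCNA2, CCNB1, CCNB2, CCNF and CDK1, a limit chosen after the values were seen). The CHR spellings TTTGAA and TTCGAA were in 19.5% of all genes and in 3 of these 5. The E2F spellings were in 3.99% of all genes and in 1 of the 5, CDK1. The added spellings were in 24.8% of all genes and in 4 of the 5. Because they were added after promoters among the 5 had been read, their share there cannot be compared with that of all genes. These letter matches are a description and do not show binding.

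The D-type cyclins, which act first in G1, differed among themselves. CCND1 (ENSG00000110092, chromosome 11, 69641087 to 69654474), the most abundant cyclin of the Control cells, stood at 149, 147 and 158 FPKM in Control and at 81.1, 86.0 and 84.1 FPKM in Dacomitinib. It fell 1.81-fold, far less than the mitotic cyclins, with no overlap between groups (difference -0.85, SE 0.05, limma adjusted p = 1.62e-05). CCND3 gave 6.84, 5.95 and 6.62 FPKM against 3.62, 3.42 and 4.13 FPKM and fell as well (difference -0.66, SE 0.08, limma adjusted p = 0.000517). As TPM the falls of CCND1 and CCND3 were smaller, with differences of -0.54 and -0.46, and both were still called (limma adjusted p = 0.000379 and 0.00572). CCND2 gave 6.89, 6.32 and 7.79 FPKM against 7.48, 8.17 and 8.48 FPKM, overlapping ranges that were not called (difference 0.18, SE 0.08, limma adjusted p = 0.103). As TPM, where the difference of CCND2 was 0.50, it was called higher (limma adjusted p = 0.00572), and so it was without the third Control library (limma adjusted p = 0.0338). Within a library, where scaling cancels, the ratio of CCND2 to CCND1 was 0.0462 ± 0.00318 in Control and 0.0961 ± 0.00435 in Dacomitinib (SD, n = 3), and the ratio of CCND3 to CCND2 was 0.928 ± 0.0724 and 0.463 ± 0.0386. CCND1 made up 91.8% ± 0.399 of D-type FPKM in Control and 87.7% ± 0.627 in Dacomitinib.

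The kinases of the D-type cyclins went apart. CDK4 (ENSG00000135446, chromosome 12, 57747727 to 57756013) gave 30.8, 32.2 and 34.9 FPKM in Control and 11.4, 9.67 and 11.2 FPKM in Dacomitinib. CDK6 (ENSG00000105810, chromosome 7, 92604921 to 92836594), its close relative, gave 17.2, 15.7 and 17.2 FPKM against 14.2, 17.1 and 15.4 FPKM. The CDK4 libraries were separate and those of CDK6 overlapped. CDK4 fell 3.04-fold (difference -1.52, SE 0.08, limma adjusted p = 1.07e-05), and CDK6 was not called (difference -0.10, SE 0.07, limma adjusted p = 0.286; as TPM the difference was 0.21, limma adjusted p = 0.106). The ratio of CDK6 to CDK4 was 0.558, 0.489 and 0.492 in the Control libraries and 1.25, 1.76 and 1.37 in the Dacomitinib libraries, a 2.85-fold higher mean, with CDK6 below CDK4 in every Control library and above it in every Dacomitinib library. An exact two-sided permutation test of this ratio gave p = 0.1, the smallest that 3 against 3 libraries allow, and 0.107 after Benjamini-Hochberg adjustment over the 29 per-library sums, shares and ratios that were computed. The ratio of CCND1 to CDK4 went from 4.64 ± 0.177 to 7.84 ± 0.929, and its ratio to CDK6 from 9.07 ± 0.34 to 5.40 ± 0.334 (SD, n = 3; exact p = 0.1 for each). TSPAN31, which overlaps CDK4 on the opposite strand, went from 4.31 to 9.88 FPKM, the other way from CDK4. Whether the authors counted by strand is not given in the sources used here.

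At the G1/S transition CCNE2 and CDK2 fell and CCNE1 was not called. CCNE1 gave 1.80, 2.24 and 1.92 FPKM in Control and 1.80, 1.42 and 1.01 FPKM in Dacomitinib, with touching ranges (difference -0.32, SE 0.15, limma adjusted p = 0.109; it was called lower without the first Dacomitinib library, limma adjusted p = 0.0474, and with quantile scaling, difference -0.44). CCNE2, the second cyclin E gene, gave 2.07, 2.40 and 1.41 FPKM against 0.734, 0.439 and 0.274 FPKM (difference -1.0, SE 0.20, limma adjusted p = 0.00436). Its libraries were separate, but its level was low and it passed the level limit through the Control libraries alone. On the opposite strand it overlaps INTS8 and NDUFAF6, which had 826% and 182% as many fragments of their own as CCNE2. INTS8 went from 5.99 to 4.93 FPKM and NDUFAF6 from 1.75 to 1.21 FPKM. CDK2, the kinase of cyclins E and A, gave 18.0, 17.8 and 19.4 FPKM against 7.05, 5.91 and 5.80 FPKM, a 2.94-fold fall (difference -1.42, SE 0.08, limma adjusted p = 1.54e-05). The 10 falls among the cell cycle members were called under every one of the 15 alternative settings in which the gene was tested; CCNE2 was below the level limit at a mean of 5 FPKM and without the second Control library.

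Summed over the 11 cell cycle cyclins, the RNA was lower in every Dacomitinib library, with another makeup. The sum was 402, 393 and 402 FPKM in Control and 120, 125 and 123 FPKM in Dacomitinib, a 3.25-fold lower mean (0.308 of Control, and 0.384 as TPM). The 4 cell cycle kinases summed to 118 ± 1.11 and 37.6 ± 0.296 FPKM (SD, n = 3), a 3.15-fold lower mean. The 13 transcription members summed to 184 ± 1.10 and 189 ± 2.44 FPKM. The small change of this last sum depends on the deposited scaling: as TPM 0 of the 13 were called lower and 6 higher. A- and B-type cyclins were 54.8% ± 1.42 of cell cycle cyclin FPKM in Control and 19.6% ± 0.808 in Dacomitinib, and CCND1 alone 37.9% ± 1.15 and 68.2% ± 0.869. The groups did not overlap in any of these quantities (exact permutation p = 0.1 for each, n = 3). The ratio of CCNB1 to its kinase CDK1 moved little, from 2.18, 2.02 and 2.25 to 2.00, 1.97 and 1.86, while that of CCNA2 to CDK2 went from 3.52 ± 0.178 to 0.885 ± 0.0963. EXOSC9 overlaps CCNA2 on the opposite strand and went from 10.6 to 8.01 FPKM, which exceeds what remained of CCNA2 in Dacomitinib. Its part in the CCNA2 values was not tested.

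These changes reordered the family. Among the 22 cyclins in Control, CCND1, CCNB1, CCNI, CCNA2 and CCNB2 were the 5 highest by mean FPKM, in that order and in each of the 3 libraries. In Dacomitinib CCNI was first in every library and CCND1 second, CCNB1 was number 9, CCNB2 number 10, CCNA2 number 15 and CCNF number 19 by mean. Among the 17 kinases, CDK1 went from the first place to number 14, CDK2 from 5 to 11, CDK6 from 7 to 3 and CDK7 from 4 to 1. CDK9 was number 2 in both groups. CDK7 and CDK9 changed places between the Dacomitinib libraries (29.7, 32.4 and 32.7 FPKM for CDK7 and 30.5, 27.6 and 30.0 FPKM for CDK9), so their order there is not beyond the spread.

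**Figure D3:**
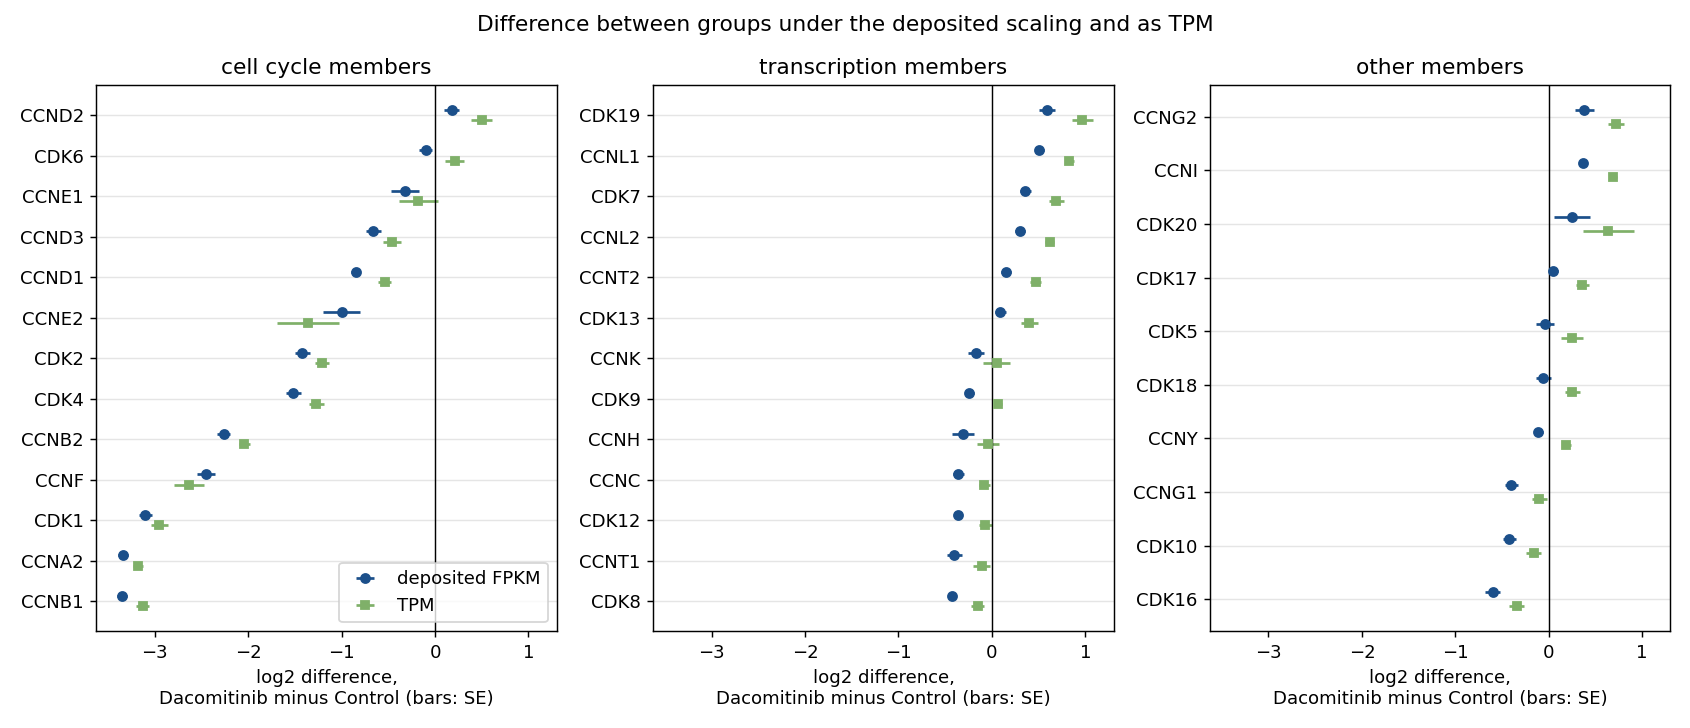
Difference between groups for each tested member (Dacomitinib minus Control on the log2 scale, bars SE), as circles from deposited FPKM + 1 and as squares from TPM + 1. The cell cycle genes with large falls stay lower on both scales, whereas CDK9, CCNK, CDK5, CDK18, CCNY and CDK6 change sign between them.

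The transcription members start with the CDK-activating kinase, a trimer of CDK7, CCNH and the assembly factor MNAT1 that phosphorylates other CDKs and, within the factor TFIIH, RNA polymerase II. CDK7 gave 23.0, 24.9 and 25.2 FPKM in Control and rose without overlap to the Dacomitinib values given above (difference 0.36, SE 0.06, limma adjusted p = 0.00164; 0.69 as TPM). Its cyclin CCNH gave 6.66, 8.29 and 6.21 FPKM against 6.34, 5.21 and 4.94 FPKM, overlapping ranges that were not called (difference -0.31, SE 0.12, limma adjusted p = 0.0659; 0.00923 with voom on recovered fragments and 0.0336 without the first Dacomitinib library). The ratio of CCNH to CDK7 was 0.290 ± 0.0436 in Control and 0.175 ± 0.0337 in Dacomitinib, and that of MNAT1 to CDK7 was 0.314 ± 0.0207 and 0.155 ± 0.0113 (SD, n = 3; exact permutation p = 0.1 for each). RASA1, which overlaps CCNH on the opposite strand, had 233% as many fragments as CCNH. CDK7 starts 56.5 kb downstream of CCNB1 on the same strand of chromosome 5, and the 2 neighbours moved in opposite directions.

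The Mediator kinase module holds CDK8 or its paralog CDK19 with cyclin C. CDK8 gave 11.2, 11.5 and 11.3 FPKM in Control and 7.96, 8.40 and 8.22 FPKM in Dacomitinib. CDK19 gave 4.23, 4.32 and 3.45 FPKM against 6.04, 6.97 and 6.46 FPKM. The groups were separate for both paralogs, in opposite directions. CDK8 fell (difference -0.43, SE 0.04, limma adjusted p = 0.000258) and CDK19 rose (difference 0.59, SE 0.09, limma adjusted p = 0.00144). As TPM the rise of CDK19 was 0.97 and CDK8 was not called (difference -0.15, limma adjusted p = 0.0882). The within-library ratio of CDK19 to CDK8, which does not depend on that scaling, was 0.379, 0.375 and 0.304 in Control and 0.759, 0.830 and 0.786 in Dacomitinib, 2.24-fold higher on average (exact permutation p = 0.1, n = 3). CCNC, their shared cyclin, fell on the deposited scale (difference -0.36, SE 0.06, limma adjusted p = 0.00207) and was not called as TPM (difference -0.08, limma adjusted p = 0.261), and its ratio to CDK8 overlapped between groups, at 0.979 ± 0.0588 and 1.03 ± 0.0879 (exact permutation p = 0.6, n = 3).

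The elongation kinases CDK9, CDK12 and CDK13 and their cyclins phosphorylate RNA polymerase II as it moves through genes. CDK9, the kinase of P-TEFb, went from 34.9 ± 0.781 to 29.4 ± 1.56 FPKM (SD, n = 3) and was called lower (difference -0.24, SE 0.05, limma adjusted p = 0.00547), but its difference was 0.07 as TPM (limma adjusted p = 0.239). Its cyclin CCNT1 gave 14.3, 13.9 and 16.9 FPKM against 11.8, 10.6 and 11.1 FPKM and was called lower (difference -0.40, SE 0.08, limma adjusted p = 0.00542; as TPM -0.11, limma adjusted p = 0.317). The alternative P-TEFb cyclin CCNT2 gave 7.56, 7.92 and 7.35 FPKM against 8.62, 8.66 and 8.40 FPKM. It was called higher (difference 0.15, SE 0.05, limma adjusted p = 0.033), and also as TPM (difference 0.47, limma adjusted p = 0.000522). On the deposited scale the call of CCNT2 was lost when any 1 library other than the second Control was left out (limma adjusted p from 0.0639 to 0.0944). The ratio of CCNT2 to CCNT1 was 0.530, 0.568 and 0.434 in Control and 0.731, 0.820 and 0.760 in Dacomitinib, without overlap. CDK12 gave 17.3, 17.3 and 17.8 FPKM against 12.9, 13.7 and 13.4 FPKM and was called lower (difference -0.36, SE 0.04, limma adjusted p = 0.000443; as TPM -0.07, limma adjusted p = 0.402), and its paralog CDK13 was not called (difference 0.09, SE 0.06, limma adjusted p = 0.283; as TPM called higher, difference 0.40, limma adjusted p = 0.00706). The ratio of CDK13 to CDK12 went from 0.277 ± 0.00633 to 0.388 ± 0.0187 (SD, n = 3). CCNK, the cyclin of both, was near 2 FPKM and not called (difference -0.17, SE 0.09, limma adjusted p = 0.168; 0.05 as TPM). It was called lower with quantile scaling (difference -0.28, limma adjusted p = 0.035) and without the trend (limma adjusted p = 0.0484).

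The L-type cyclins, which localise to splicing speckles, rose. CCNL1 gave 25.6, 25.1 and 24.6 FPKM in Control and 37.8, 36.4 and 34.1 FPKM in Dacomitinib (difference 0.51, SE 0.05, limma adjusted p = 0.000181; 0.83 as TPM). CCNL2 gave 19.2, 19.9 and 18.3 FPKM against 24.9, 23.4 and 22.9 FPKM (difference 0.30, SE 0.05, limma adjusted p = 0.00251; 0.62 as TPM). In both genes each Dacomitinib library lay above each Control library. Thus CDK7, CDK19, CCNL1, CCNL2 and CCNT2 were called higher on both scales, though the deposited-scale call of CCNT2 depended on single libraries. The 5 lower calls of transcription members (CCNC, CCNT1, CDK8, CDK9 and CDK12) were all lost as TPM.

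**Figure D4:**
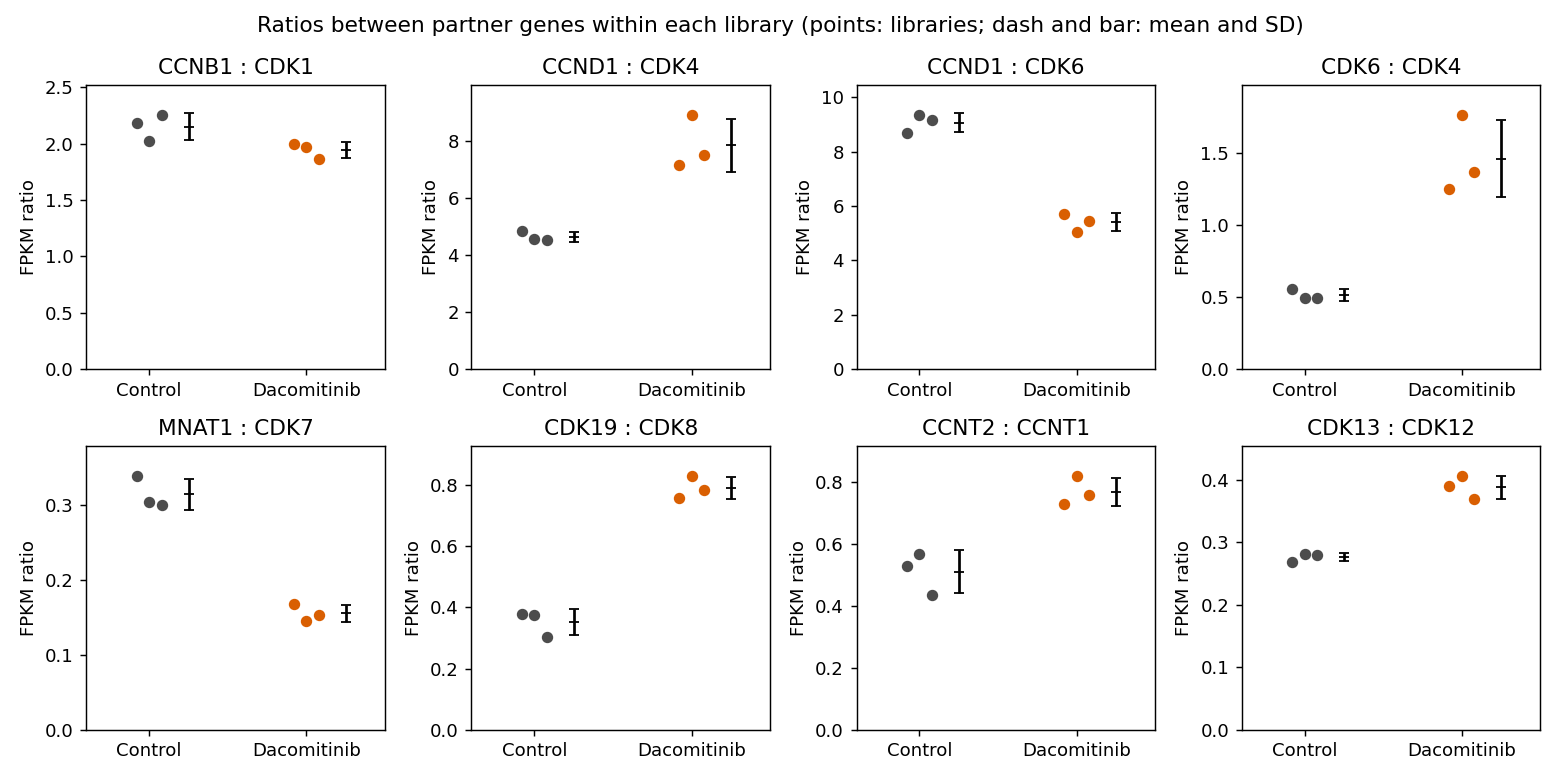
FPKM ratio of partner or paralog genes within each library (points), with the mean and SD of 3 libraries per group beside them. CCNB1 to CDK1 stays near 2, the means of CDK6 to CDK4 and CDK19 to CDK8 are 2.85-fold and 2.24-fold higher in Dacomitinib, and MNAT1 to CDK7 goes from 0.314 to 0.155.

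Among the other members, the cyclin-like genes moved both ways. CCNI, an atypical cyclin that is abundant in many tissues, gave 93.5, 92.1 and 88.3 FPKM in Control and 120, 117 and 118 FPKM in Dacomitinib and rose (difference 0.37, SE 0.04, limma adjusted p = 0.000301; 0.69 as TPM). CCNG2, a cyclin linked to cell cycle arrest and a known FOXO target, gave 9.90, 10.8 and 8.09 FPKM against 13.4, 12.2 and 12.5 FPKM and rose (difference 0.38, SE 0.10, limma adjusted p = 0.0149; 0.72 as TPM). Its paralog CCNG1, a p53 target, gave 35.1, 35.7 and 31.7 FPKM against 26.2, 27.3 and 23.4 FPKM and was called lower (difference -0.40, SE 0.07, limma adjusted p = 0.00297), but not as TPM (difference -0.10, limma adjusted p = 0.302). The groups did not overlap for any of these 3 genes, and the ratio of CCNG2 to CCNG1 was 0.280 ± 0.0237 in Control and 0.499 ± 0.0453 in Dacomitinib (SD, n = 3). On the deposited scale CCNI and CCNG2 were the only 2 of the 10 tested other members called higher, against 25.4% of all tested genes. As TPM 5 were called higher. CCNI and CCNG2 lie 81.1 kb apart on chromosome 4 on opposite strands. CCNY, the membrane-bound cyclin of the CDK14 and CDK16 branch, was not called (difference -0.11, SE 0.05, limma adjusted p = 0.107; as TPM called higher, difference 0.19, limma adjusted p = 0.0137).

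Of the kinases outside both branches, CDK16, a partner of cyclin Y, gave 11.7, 10.4 and 12.3 FPKM against 7.88, 6.71 and 7.12 FPKM and fell (difference -0.60, SE 0.08, limma adjusted p = 0.000739; as TPM -0.34, limma adjusted p = 0.0101). CDK10, the kinase of cyclin Q, gave 8.74, 7.51 and 7.93 FPKM against 5.89, 5.79 and 5.55 FPKM and was called lower (difference -0.42, SE 0.07, limma adjusted p = 0.00143; as TPM -0.16, limma adjusted p = 0.102). The libraries were separate in both. The CDK16 relatives CDK17 (difference 0.05, limma adjusted p = 0.465) and CDK18 (difference -0.06, limma adjusted p = 0.583) were not called, and both were called higher as TPM (0.36 and 0.25). CDK5, best known for its work in neurons with non-cyclin activators, gave 3.87, 3.51 and 4.10 FPKM against 3.62, 3.28 and 4.24 FPKM and was not called (difference -0.04, SE 0.10, limma adjusted p = 0.765). SLC4A2, which overlaps CDK5 on the opposite strand, had 751% as many fragments as CDK5. CDK20 gave 1.62, 0.849 and 1.97 FPKM against 2.05, 1.83 and 1.82 FPKM, a wide Control range that held the Dacomitinib values but for the highest, and was not called (difference 0.25, SE 0.19, limma adjusted p = 0.283). CDK14 was under the level limit in every library, at 0.159 to 0.246 FPKM in Control and 0.227 to 0.253 FPKM in Dacomitinib.

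The regulators around the family were read from 6 lists of 63 further genes, 57 of which were tested. Of these 35 fell and 7 rose, with a median difference of -0.46, and as TPM 28 fell and 17 rose with a median of -0.15. The list counts that follow are to be read against the shares of all tested genes, 34.8% lower and 25.4% higher, and 19.8% and 42.0% as TPM. Of the genes counted as lower, CDC25A, PKMYT1, CDKN2C and E2F2 had a Dacomitinib mean under 1 FPKM and passed the level limit through the Control libraries alone. All 7 tested CDK activators and assembly factors fell, with a median of -1.83 (6 as TPM). CDC25C, the phosphatase that activates CDK1, fell from 8.07 ± 0.552 to 1.21 ± 0.273 FPKM (SD, n = 3; limma adjusted p = 1.22e-05), and CKS1B, a small CDK-binding adaptor, from 48.1 ± 0.609 to 11.1 ± 0.523 FPKM (limma adjusted p = 7.53e-07). In the RB and E2F family 10 of 11 genes fell and 1 rose (median difference -0.82; 8 and 1 as TPM). The activating factor E2F1 fell by 2.60 and E2F2 by 2.18 on the log2 scale, and the pocket protein gene RBL2 rose by 0.51.

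Of the 9 tested CDK inhibitors 5 fell and 2 rose, with a median of -0.71 (5 and 4 as TPM). PKMYT1, a kinase that inhibits CDK1 by phosphorylation, fell from 11 ± 0.882 to 0.730 ± 0.207 FPKM, and CDKN3, a phosphatase that removes the activating phosphate of CDKs, from 18.7 ± 2.88 to 1.47 ± 0.560 FPKM. The 2 that rose are inhibitor proteins that bind CDK complexes: CDKN1A (p21) from 13.8 ± 2.04 to 25.7 ± 0.801 FPKM and CDKN2B (p15) from 10.6 ± 0.776 to 51.4 ± 0.164 FPKM (SD, n = 3). Set against its targets within a library, CDKN2B was 0.322, 0.355 and 0.296 of CDK4 in Control and 4.54, 5.33 and 4.56 times CDK4 in Dacomitinib, and went from 0.635 ± 0.0798 to 3.32 ± 0.302 times CDK6. In FPKM, CDKN2B was thus below both kinases in every Control library and above both in every Dacomitinib library.

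Of the 8 cyclin ubiquitin ligase parts 5 fell and 1 rose, with a median of -0.78 (5 and 2 as TPM). CDC20, which brings cyclin B to the anaphase-promoting complex, and FBXO5, an inhibitor of that complex, both fell: CDC20 fell by 3.90 on the log2 scale and FBXO5 fell by 1.84, and FBXW7, the receptor for cyclin E, rose by 0.63. The 16 partners of the transcription CDKs gave 4 lower and 3 higher with a median of -0.04 (2 and 10 as TPM). On the deposited scale these counts lie near the shares of all genes and are not read as a result about the partners. The largest subunit of RNA polymerase II, POLR2A, fell by 0.46, while HEXIM2, a P-TEFb inhibitor, rose by 0.85 and the elongation factor ELL2 by 0.32. HEXIM2 was low, at 1.32 FPKM in Control and 3.17 FPKM in Dacomitinib. Its more abundant paralog HEXIM1 was not called (12.3 and 11.6 FPKM, limma adjusted p = 0.536). Among the 6 tested further members of the cyclin and CDK families 4 were lower and 0 higher (median difference -0.34; 2 and 0 as TPM). Among them CCNQ, the cyclin of CDK10, fell by 0.70 and its ratio to CDK10 overlapped between groups, at 1.72 ± 0.224 and 1.42 ± 0.173 (exact permutation p = 0.2, n = 3).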

How the data were processed

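RNA was sequenced in 6 HaCaT samples, 3 Control and 3 Dacomitinib. The authors deposited FPKM per gene with gene length and GRCh38 position; per the submitters' processing notes the tools were CASAVA, fastp, HISAT2, featureCounts and DESeq2 1.20.0, with no role or order given. FPKM times gene length gave whole fragments for 100% of values (tolerance 0.01) after 1 factor per library, from which depth was read. From the deposited FPKM, log2(FPKM + 1) was fitted with limma 3.58.1 (lmFit, eBayes with trend; R 4.3.3) over genes with a mean of at least 1 FPKM, without a replicate term, and p-values were adjusted over all 13748 genes. Sums, shares and ratios per library were compared by exact permutation. The script was tested on simulated data. Alternatives were a pseudocount of 0.1, no level filter, a mean of at least 5 FPKM, TPM, median ratio and quantile scaling, no trend, voom on recovered fragments, a replicate block and leaving out each library. All 39 members are named; of other genes, up to 2 per list with the largest called rise and up to 2 with the largest called fall, of which 1 is not reported here; promoters were printed for the 4 members with the largest falls. 1 listed gene, CCNP, was matched by identifier. The members and lists were chosen with earlier results of these data known. Promoter letters came from RefSeq.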

Additional observations from a re-analysis of the deposited data

How the results depend on the processing

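The number of cell cycle members called lower was 9 to 11 under all alternatives, their median moved with the filter, pseudocount and scaling, and the counts of the transcription and other members moved with scaling. With quantile scaling the lower calls of CCNT1, CDK9 and CCNG1 were lost, CCNE1 and CCNK were called lower, and CDK13 and CDK17 higher. With TPM 1 cell cycle member was called higher (also with quantile scaling and with voom, CCND2; 0 to 1 when leaving out a library), 0 transcription members lower, 1 other member lower and 5 higher, and 17 other pathway genes higher (14 with quantile scaling). Of all tested genes 2721 were lower and 5779 higher as TPM, and 1946 higher at a mean of at least 5 FPKM. The cell cycle median was -1.60 with a pseudocount of 0.1 and with voom, -1.0 without a filter, -1.52 at 5 FPKM, -1.27 as TPM and -1.25 with quantile scaling (-1.50 to -1.38 leaving out a library). The transcription median was -0.24, -0.25 with voom, -0.08 at 5 FPKM, 0.07 as TPM and -0.02 with quantile scaling (-0.19 to -0.13). The median of other members was 0.25 as TPM and 0.08 with quantile scaling (-0.08 to 0.00). That of all tested genes was -0.07 with a pseudocount of 0.1 and with voom, 0.03 without a filter, -0.15 at 5 FPKM, 0.23 as TPM and 0.02 with quantile scaling (-0.07 to -0.05). The cell cycle median minus the transcription median was -1.35 with a pseudocount of 0.1 and with voom, -0.83 without a filter (against -1.26 with it), -1.44 at 5 FPKM and -1.33 as TPM (-1.36 to -1.20). The summed cell cycle cyclins in Dacomitinib were 0.308 of Control, 0.384 as TPM and 0.353 with quantile scaling, and the share of kinase FPKM on cell cycle kinases in Dacomitinib was 0.490 times that in Control, 0.497 times with quantile scaling. Differences changed sign as TPM for CCNK (0.05), CCNY (0.19), CDK18 (0.25), CDK5 (0.25), CDK6 (0.21) and CDK9 (0.07), with quantile scaling for CCNY (0.08), CDK18 (0.07) and CDK6 (0.12), and, leaving out a library, for CDK18 (0.02, range -0.10 to 0.02) and CDK5 (0.00 and 0.03, range -0.12 to 0.03). The cause was not tested.

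No pairing by column number was seen: deviations of same-numbered columns correlated at 0.027, -0.016 and 0.040. The numbers of the Dacomitinib columns are only names, so these values cannot show whether the samples were paired. With a replicate block 4618 genes were lower and 3265 higher, and among the members CCNT2 alone lost its call (limma adjusted p = 0.0608). CCNA1, CCNB3 and CDK14 had too few fragments for a statement, and CCNE1, CCNE2 and CDK20, near 2 FPKM or less, had the widest errors.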

Other observations

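Of the 39 members 24 overlap an annotated gene on the opposite strand. In 7 of the 36 tested ones the overlapping genes had over 10% as many fragments as the member: CCNA2, CCNE2, CDK4, CCNH, CCNK, CDK5 and CDK10. These fragments were counted over whole genes and overlap was taken by gene span, so they need not lie in shared sequence. Without a stated strand setting, reads in sequence that such a pair shares cannot be told apart. For CCNK the neighbour is CCDC85C, with 342% as many fragments as CCNK, and for CDK10 it is SPATA2L, with 13.1% as many as CDK10. CDK4 overlaps MARCH9 as well, which went from 6.21 to 4.83 FPKM. Pseudogenes named after members held at most 15 fragments over the 6 libraries (CCNL2P1).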
